A study of Homo sapiens with 6 samples.

Results

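The genes described here are 9 genes used to recognise kidney proximal tubule cells, measured in HK-2 cells, an established line of immortalised human proximal tubule epithelium. The members were chosen by gene symbol as HNF4A, PAX8, PAX2, LRP2, CUBN, AQP1, GGT1, ANPEP and DPP4, and each symbol was found once among the 62754 genes of the deposited count table. RNA was sequenced from 6 samples in 2 groups of 3. All of them were treated with Cisplatin, a platinum drug that injures tubule cells, and received either a negative control siRNA (siNC) or an siRNA against NAT10 (siNAT10), an RNA acetyltransferase. No sample without Cisplatin and no kidney tissue was analysed here, so the values are levels within Cisplatin-treated cells of 1 line, and the comparison asks how these genes differ when NAT10 is lowered. The labels do not say that replicates were separate cultures, so p-values measure only the spread between these samples, which may be technical. The total counts of the siNC libraries were 19321665, 21602988 and 19464027, and those of the siNAT10 libraries were 20793709, 21531774 and 25192736.

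The proximal tubule takes back most of the filtered water, glucose, amino acids and protein through a brush border of microvilli. PAX2 and PAX8 are transcription factors of the developing nephron, PAX8 also staying on in adult tubules, while HNF4A is a nuclear receptor that drives maturation of proximal tubule cells. LRP2 (megalin) and CUBN (cubilin) are the giant receptors that take up filtered protein, AQP1 is the water channel, and GGT1, ANPEP and DPP4 are brush border enzymes that cleave glutathione and peptides.

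The targeted gene was read first. NAT10 (ENSG00000135372, chromosome 11, 34105617 to 34147670 on GRCh38) was at 75.7, 71.2 and 73.0 CPM (counts per 1000000 counts, with library sizes scaled by TMM) in the siNC libraries and at 41.2, 40.5 and 42.4 CPM in the siNAT10 libraries. The siNAT10 libraries all lay below the siNC libraries, at 56.4% of the control mean, with a log2 fold change of -0.82 (SE 0.0426, adjusted p = 2.80e-15 from edgeR's quasi-likelihood F test, Benjamini-Hochberg over all genes tested).

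Of the 9 members, 5 reached 10 counts in at least 3 libraries, and these were also the 5 that entered the test. The other 4, HNF4A, LRP2, CUBN and ANPEP, were low. So the receptors of protein uptake, the maturation factor and a brush border peptidase had few counts, whereas PAX8 and GGT1 had at least 567 and 553 counts in every library. Together the 9 genes held 9697 of the 127906899 counts.

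To show what the low and the changed members look like at their starts, RefSeq promoters on GRCh38.p14 were read. All 9 members had an entry, with 13 promoters among them. In the 250 bases before each start, 3 short motifs were searched on both strands: GGGCGG, known as the GC box, TATAAA, from the TATA box, and the box named by its letters CCAAT. Among 35114 promoters of the same length, GGGCGG was present in 42.6%, TATAAA in 10.7% and CCAAT in 32%. The sequences below, 5′ to 3′ on the gene's strand, are those of HNF4A and CUBN, which were low, and of PAX8, which rose. They were taken outside exons of GENCODE 29, and capitals mark the motif matches on either strand.
HNF4A, first start, chr20:44355549-44355698, plus strand: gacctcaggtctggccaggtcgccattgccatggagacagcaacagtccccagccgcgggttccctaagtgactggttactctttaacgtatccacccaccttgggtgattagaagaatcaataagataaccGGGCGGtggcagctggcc
HNF4A, second start, chr20:44401089-44401238, plus strand: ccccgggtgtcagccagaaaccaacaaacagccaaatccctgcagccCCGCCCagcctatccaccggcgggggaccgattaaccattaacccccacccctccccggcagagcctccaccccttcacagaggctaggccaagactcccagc
CUBN, chr10:17129818-17129967, minus strand: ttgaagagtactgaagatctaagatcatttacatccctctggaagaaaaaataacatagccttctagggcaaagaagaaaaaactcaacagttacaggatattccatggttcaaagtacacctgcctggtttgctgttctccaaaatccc
PAX8, chr2:113278951-113279100, minus strand: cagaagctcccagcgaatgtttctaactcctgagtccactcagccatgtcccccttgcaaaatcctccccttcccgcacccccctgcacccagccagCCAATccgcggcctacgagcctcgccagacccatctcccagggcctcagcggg

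HNF4A had a GC box at each of its 2 starts, the second of which lies 45540 bases into the annotated gene, and CCAAT 225 bases before the first. PAX8 had no GC box and held CCAAT 82 and 240 bases before its start. CUBN held none of the 3 motifs. These letters mark no proven site, and their part in the counts was not tested.

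The low members did not share a base composition. The 250 bases before the CUBN start were 38% G and C and held 1 CpG, where 6.05% of promoters held fewer and the median was 11 (quartiles 3 and 23). LRP2, the partner of CUBN, had 21 CpG and 3 GC boxes in the same span. DPP4, which was tested, and 1 of the 2 ANPEP starts had 26 CpG each.

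Levels were set against each other per gene length, as CPM per kilobase. Averaged over the 6 libraries, GGT1 stood at 6.91 and PAX8 at 5.33 CPM per kilobase, above 86.0% and 83.2% of the 43353 genes with at least 1 count. Among the 19874 genes tested, they stood above 69.5% and 63.5%. AQP1 followed at 0.264, DPP4 at 0.248 and PAX2 at 0.111, then ANPEP at 0.0283, HNF4A at 0.0219, CUBN at 0.0131 and LRP2 at 0.00145 CPM per kilobase. Among neighbours in this order, ANPEP, HNF4A and CUBN overlapped in their library values, while PAX2 lay below every AQP1 and DPP4 library. AQP1, DPP4 and PAX2 stood above only 7.26%, 6.74% and 2.09% of the tested genes.

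Per gene length, the order of the tested members was not the same in both groups. In siNC, GGT1 (7.54 to 7.62 CPM per kilobase) lay above PAX8 (4.08 to 4.44), and in siNAT10 their ranges overlapped (5.77 to 6.63 and 5.74 to 6.93). AQP1 (0.254 to 0.386) lay above DPP4 (0.178 to 0.195) in siNC, and DPP4 (0.292 to 0.325) lay above AQP1 (0.168 to 0.266) in siNAT10. These are descriptions of levels, and the difference between genes was not tested.

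**Figure D1:**
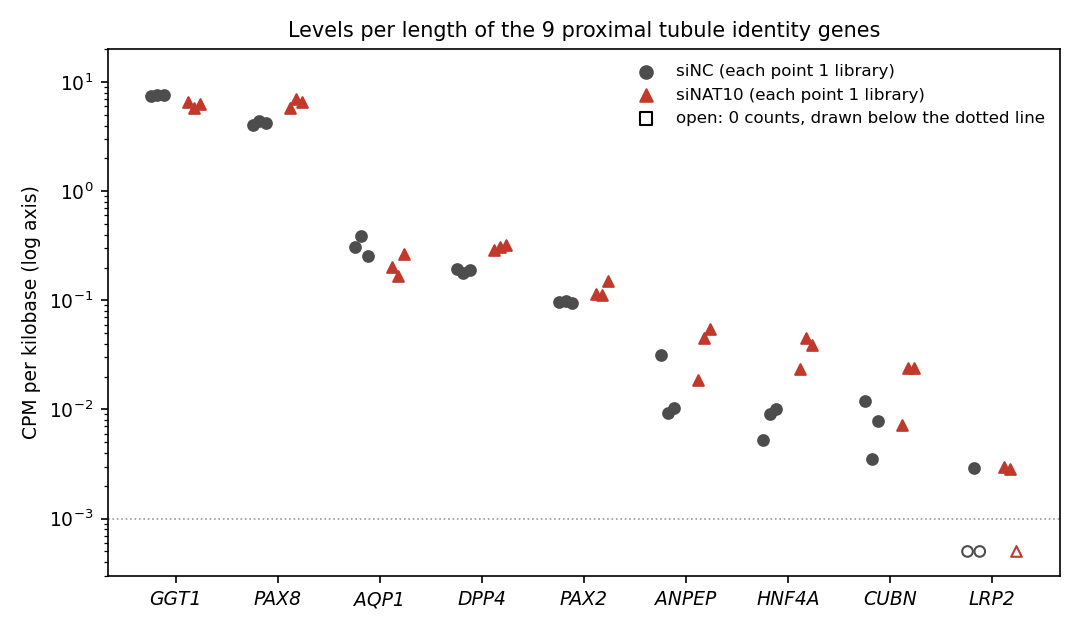
CPM per kilobase (vertical, log axis) of the 9 members in each library, siNC as circles and siNAT10 as triangles, ordered by the mean over 6 libraries; libraries with 0 counts are open symbols under the dotted line. GGT1 and PAX8 stand above 4 CPM per kilobase in every library, and ANPEP, HNF4A, CUBN and LRP2 at 0.0546 or below.

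With NAT10 siRNA, PAX8 and DPP4 rose and GGT1 fell, each by less than 2-fold, while PAX2 and AQP1 did not pass the test. Thus 3 of 5 tested members had an adjusted p under 0.05, beside 44.1% of the 19874 genes tested, with 2 higher (21.8% of tested genes were) and 1 lower (22.3%). With library size only in place of TMM, 5047 genes were higher and 3786 lower, in place of 4330 and 4441. The members' calls were 2 higher and 1 lower there too. None of the 5 had a log2 fold change over 1 in size with an adjusted p under 0.05, against 2.33% of tested genes. The CPM of the groups did not overlap for 4 of the 5, beside 51.4% of tested genes. With so many genes called in the whole table, a count of 3 among 5 is no result about these genes as a set. The median log2 fold change was 0.38 over the 5 members and 0.0069 over all tested genes. The former is the value of PAX2, which was not called, and was 0.22 without siNAT10 replicate 3. In bulk RNA, fewer cells carrying a transcript and less of it per cell cannot be told apart.

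Among the transcription factors, PAX8 (ENSG00000125618, chromosome 2, 113215997 to 113278921, minus strand) was at 30.1, 32.7 and 31.4 CPM in siNC and at 42.3, 51.1 and 48.0 CPM in siNAT10. The lowest siNAT10 library was above the highest siNC library, and the siNAT10 libraries were further apart. The means were 31.4 ± 1.34 and 47.1 ± 4.47 CPM (SD, n = 3 each), and the fitted log2 fold change was 0.59 (SE 0.0574, adjusted p = 1.59e-09 by edgeR's quasi-likelihood test).

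PAX8-AS1, a long noncoding gene annotated on the opposite strand across most of PAX8, held 227, 311 and 228 counts in siNC and 443, 440 and 509 in siNAT10. It rose too, with a log2 fold change of 0.67 (SE 0.0734, adjusted p = 1.51e-08). The libraries were stranded, but the sources used here do not say whether strand was used in counting, so reads of the pair may have been exchanged. Summed with PAX8-AS1, PAX8 had a log2 fold change of 0.61 (adjusted p = 3.13e-11), a sum chosen after seeing the data.

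PAX2 (ENSG00000075891, chromosome 10, 100735396 to 100829944), the partner of PAX8 in the nephric lineage, had 12, 14 and 12 counts in siNC and 16, 16 and 25 in siNAT10. The groups did not overlap as CPM, at 0.637 ± 0.0154 and 0.824 ± 0.139 CPM (SD, n = 3 each). Its log2 fold change of 0.38 had a 95% interval from -0.22 to 0.99 (adjusted p = 0.316, edgeR), an interval that holds both no change and the log2 fold change of PAX8.

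HNF4A (ENSG00000101076, chromosome 20, 44355699 to 44430500) had 1, 2 and 2 counts in siNC and 5, 10 and 10 in siNAT10. All 3 siNAT10 libraries were higher than the siNC libraries, at totals of 25 and 5 counts. Exact Poisson 95% intervals, which cover counting error only, run from 0.237 to 0.540 CPM for siNAT10 and from 0.0272 to 0.196 CPM for siNC. As a low gene it is given no fold change. HNF4A-AS1 on the opposite strand had 0 counts in all 6 libraries.

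**Figure D2:**
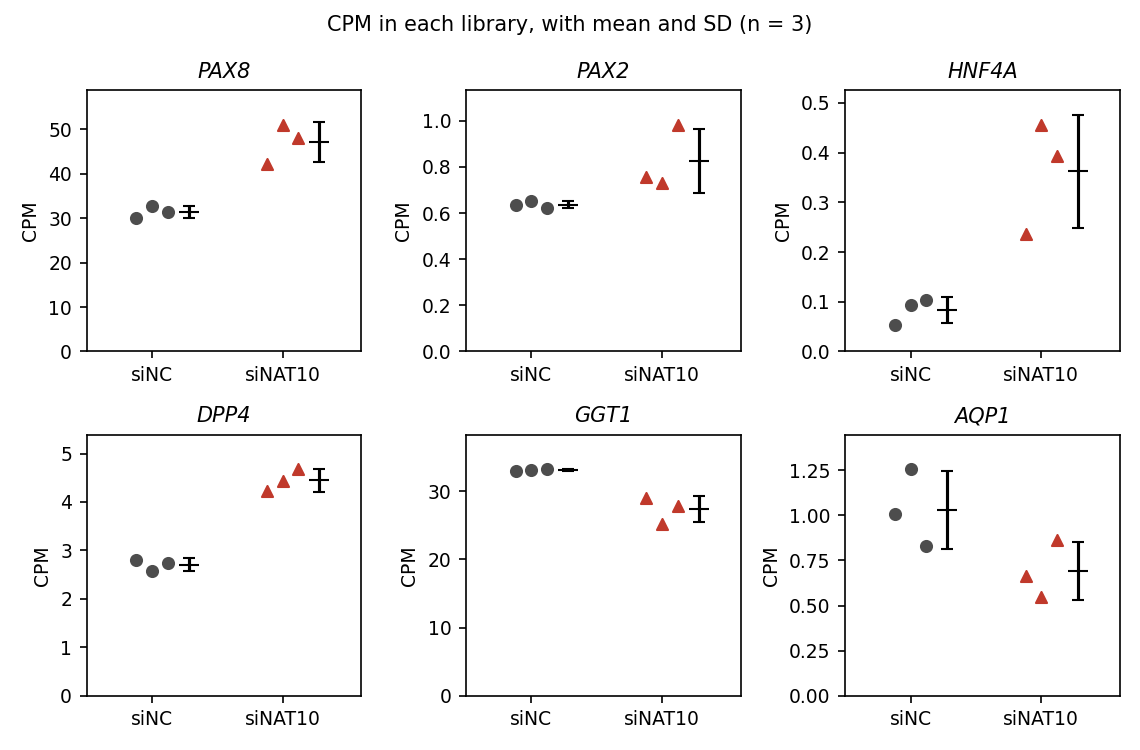
CPM (vertical, from 0) of 6 members in each siNC (circles) and siNAT10 (triangles) library, with the mean and SD of 3 libraries beside them. PAX8 and DPP4 stand apart upwards and GGT1 downwards in siNAT10, AQP1 overlaps, and HNF4A is at most at 0.457 CPM.

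LRP2 (ENSG00000081479, chromosome 2, 169127109 to 169362534), megalin, had 0, 1 and 0 counts in siNC and 1, 1 and 0 in siNAT10, which is 3 counts in all over a gene model of 16109 bases. Its receptor partner CUBN (ENSG00000107611, chromosome 10, 16823966 to 17129811) had 3, 1 and 2 counts in siNC and 2, 7 and 8 in siNAT10. LRP2 stayed under 3 counts in every library, which stand for 0.118 to 0.159 CPM depending on the library, while CUBN passed them in siNAT10 replicates 2 and 3. The groups overlapped for both genes.

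All 13 genes listed as megalin and cubilin partners were tested, 6 higher, 4 lower and 3 not called, with a median log2 fold change of 0.12. Among all tested genes 44.1% were called, 21.8% higher and 22.3% lower, shares that also stand beside the counts of the lists below. The median of 0.12 is the value of AMN, which was not called and was at 0.00082 without siNC replicate 1. AMN, the membrane anchor that cubilin needs to reach the surface, was at 0.814 CPM per kilobase, and LRPAP1, the chaperone of megalin, at 6.30. Among the 6 higher genes LRPAP1 and EHD1, and among the 4 lower genes DAB2, had adjusted p from 0.0171 to 0.0286 and were not called in 4, 5 and 6 of 12 alternatives. GIPC1, an adaptor that binds the tail of megalin, fell from 35.9 ± 1.80 to 29.7 ± 0.199 CPM (SD, n = 3 each), a log2 fold change of -0.27 (adjusted p = 5.20e-05, edgeR).

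The endosomal chloride exchanger CLCN5, mutated in Dent disease, rose by 0.82 on the log2 scale (SE 0.168, adjusted p = 0.000190). The phosphatase OCRL, altered in Lowe syndrome, fell by 0.35 (SE 0.0442, adjusted p = 1.35e-07). The neonatal Fc receptor subunit FCGRT, which recycles albumin, fell by 0.76 (SE 0.0981, adjusted p = 2.47e-07). The folate receptor FOLR1 and the trafficking protein RAB11A had the highest levels of the list, 10.9 and 10.4 CPM per kilobase. FOLR1 had a log2 fold change of 0.29 (adjusted p = 0.00476), which without siNC replicate 3 was 0.17 and not called (adjusted p = 0.0750).

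Other receptors of the family to which megalin belongs were expressed: 11 of 13 were tested, 4 higher and 3 lower (median log2 fold change 0.03). LRP11 among the higher genes was not called in 4 of 12 alternatives. LRP3 rose by 0.51 (SE 0.103, adjusted p = 0.000168), and LRP12 and LRP10 fell by 0.90 and by 0.64 (adjusted p = 2.41e-15 and 1.89e-13). LRP10 stood highest at 8.78 CPM per kilobase. LRP1B, a giant receptor like megalin, had 2 counts in all.

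AQP1 (ENSG00000240583, chromosome 7, 30911853 to 30925517), the constitutive water channel, was at 1.01, 1.26 and 0.829 CPM in siNC and at 0.664, 0.548 and 0.866 CPM in siNAT10. Its highest siNAT10 library, the third, exceeded the lowest siNC library, also the third. The log2 fold change of -0.56 had a 95% interval from -1.15 to 0.02 (adjusted p = 0.111, edgeR), so no difference was detectable at 12 to 27 counts per library. ENSG00000250424, an unnamed gene on the same strand, overlaps it and had 19 counts in all.

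Of 11 other aquaporins listed, 3 were tested (median log2 fold change 0.07, the value of MIP, which was -0.012 without siNAT10 replicate 1). AQP3, a glycerol-carrying channel of the collecting duct, fell from 23, 32 and 23 counts to 18, 13 and 14, a log2 fold change of -0.98 (SE 0.268, adjusted p = 0.00347). MIP and AQP11 did not pass the test, and MIP had the highest level of the list at 0.703 CPM per kilobase. AQP2, the vasopressin-regulated channel, had 3 counts in all and AQP5 had 0.

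GGT1 (ENSG00000100031, chromosome 22, 24594811 to 24628996), the enzyme that opens glutathione breakdown at the brush border, was at 33.0, 33.1 and 33.3 CPM in siNC and at 29.01, 25.25 and 27.79 CPM in siNAT10. Every siNAT10 library was below the siNC libraries. The log2 fold change was -0.28 (SE 0.0537, adjusted p = 9.90e-05 by edgeR's quasi-likelihood test), with 33.1 ± 0.176 and 27.4 ± 1.92 CPM in the groups (SD, n = 3 each). Per plain library total, without TMM, the siNC mean was 32.7 CPM, further from 33.1 than the SD of 0.176.

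GGT1 counts are uncertain on 2 accounts. ENSG00000286070, an unnamed gene from 24556007 to 24628987 on the same strand, overlaps nearly all of it and held 4640 counts in siNC and 4949 in siNAT10, with a log2 fold change of -0.11 (adjusted p = 0.0358). Summed with it, a choice made after seeing the data, GGT1 had a log2 fold change of -0.16 (adjusted p = 0.00165). That estimate is over 1.5 times smaller in size than that of GGT1 alone, and the part of shared reads in it was not tested. The first RefSeq start of GGT1 also lies upstream of the gene in the deposited table. The other account is near-identical copies, and the 7 copies GGT2P, GGT3P, GGTLC1, GGTLC2, GGTLC3, GGTLC4P and GGTLC5P held 25 to 54 counts per library in sum, 3.89% to 7.65% of those of GGT1. With them added the log2 fold change was -0.26 (adjusted p = 0.000212, edgeR). How reads matching several copies were counted is not given in the sources used here, so this sum cannot show their part. In the rest of the family GGT7 stood at 4.08 CPM per kilobase, GGT5 and GGT6 had 4 and 12 counts in all, and neither of the 2 genes tested, GGT7 and GGTLC2, was called (median log2 fold change -0.08).

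DPP4 (ENSG00000197635, chromosome 2, 161992245 to 162074122, minus strand), the dipeptidyl peptidase that trims incretins and chemokines, was at 2.81, 2.56 and 2.75 CPM in siNC and at 4.22, 4.43 and 4.68 CPM in siNAT10. The groups were apart, with means of 2.71 ± 0.127 and 4.44 ± 0.233 CPM (SD, n = 3 each). Its log2 fold change was 0.72 (SE 0.136, 95% interval 0.44 to 1.00, adjusted p = 6.94e-05, edgeR), from 53, 55 and 53 counts against 89, 97 and 119. DPP4-DT, on the opposite strand at its start, had 7 counts in all.

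ANPEP (ENSG00000166825, chromosome 15, 89784895 to 89815401), aminopeptidase N, had 3, 1 and 1 counts in siNC and 2, 5 and 7 in siNAT10, and the groups overlapped. The group totals of 5 and 14 counts have exact Poisson intervals of 0.0272 to 0.196 and 0.112 to 0.343 CPM, which overlap.

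Relatives of DPP4 and ANPEP were read as well. Of 12 genes in the DPP4 and M1 peptidase families 8 were tested, 2 higher and 4 lower (median log2 fold change -0.10). DPP8 among the lower genes was not called in 7 of 12 alternatives. DPP9, a cytosolic relative of DPP4, rose by 0.42 (SE 0.0477, adjusted p = 2.99e-08), while the closest relative of DPP4, FAP, had 1 count in all. ERAP1, which trims peptides for antigen presentation, fell by 0.69 (SE 0.0421, adjusted p = 1.12e-13), and LTA4H fell by 0.36 (adjusted p = 6.66e-09). ERAP2 had the highest level at 15.1 CPM per kilobase, then RNPEP at 13.0.

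**Figure D3:**
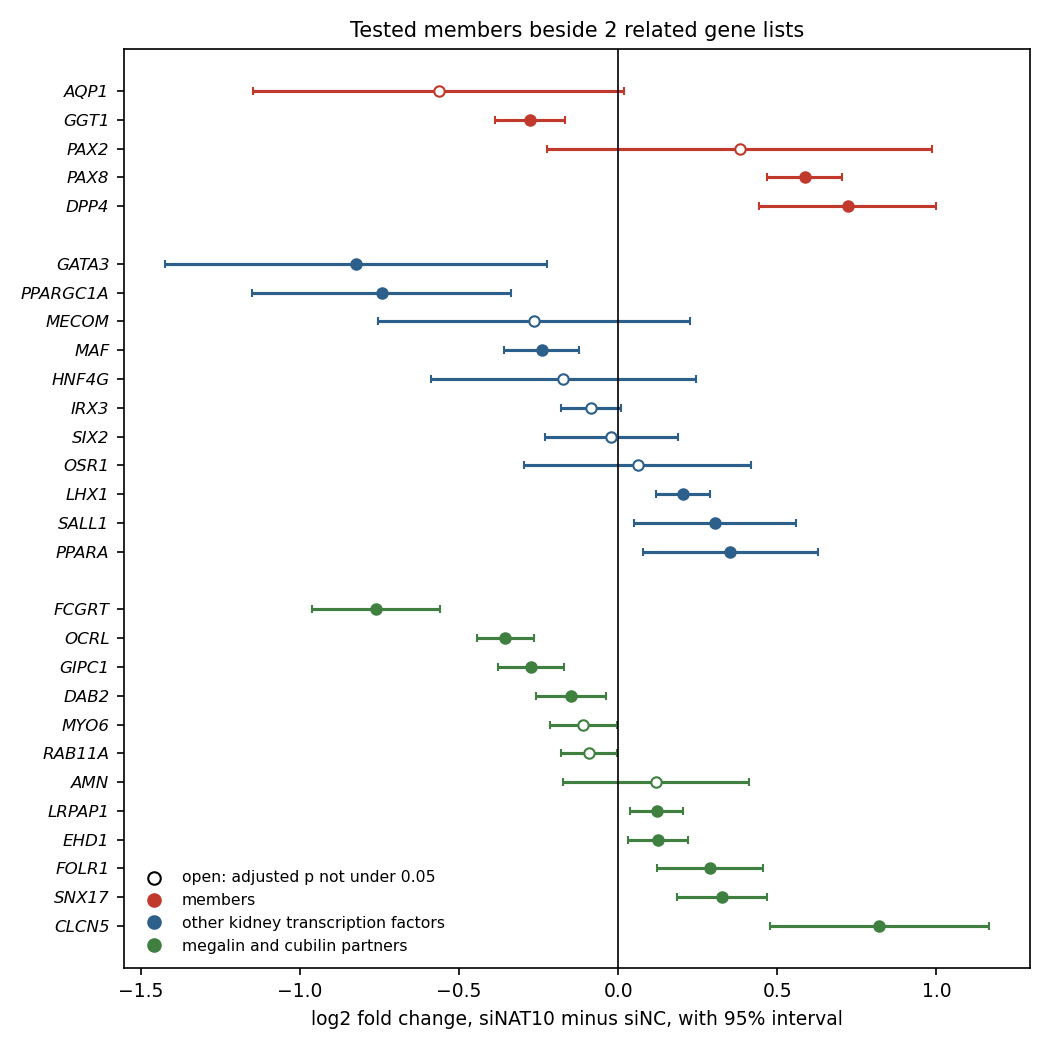
Fitted log2 fold changes (siNAT10 minus siNC) with 95% intervals for the 5 tested members, 11 other kidney transcription factors and 12 megalin and cubilin partners; filled points have an adjusted p under 0.05. DPP4 at 0.72 and PAX8 at 0.59 are the members to the right, GGT1 at -0.28 is to the left, and the intervals of PAX2 and AQP1 cross 0.

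Other transcription factors of the kidney were described beside the 3 members of that role. Of 20, 14 were tested, with 3 higher and 5 lower (median log2 fold change -0.13). SALL1 and PPARA among the higher genes and GATA3 among the lower were not called in 7 of 12, 4 of 12 and 5 of 11 alternatives. PPARGC1A, a coactivator of mitochondrial genes, had 41, 59 and 45 counts in siNC and 30, 40 and 29 in siNAT10, a log2 fold change of -0.74 (SE 0.198, adjusted p = 0.00283). HNF4G, the closest relative of HNF4A, had 28 to 48 counts and did not pass the test (log2 fold change -0.17, 95% interval -0.59 to 0.24; -0.02 with an adjusted p of 0.953 without siNAT10 replicate 2).

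LHX1, a factor of the early nephron, was the most abundant of these at 24.7 CPM per kilobase and rose by 0.20 (SE 0.0414, adjusted p = 0.000176). IRX3 followed at 14.98 CPM per kilobase and was not called. MAF fell by 0.24 (SE 0.0581, adjusted p = 0.00114).

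Of the remaining 7 genes of the PAX family, PAX6 and PAX9 were tested. PAX6, known for the eye and pancreas, was at 1.72 CPM per kilobase, above PAX2, and fell by 0.20 (SE 0.0495, adjusted p = 0.00183). PAX9 stood at 0.483 CPM per kilobase and was not called. PAX1, PAX3, PAX4, PAX5 and PAX7 each had 4 counts or fewer in all.

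The label of the cells was set against further markers of the proximal tubule. Of 80 genes for transport, metabolism and brush border enzymes, 38 had fewer than 10 counts in the 6 libraries together, 9 had 0, and 27 were tested. The genes at 0 were the anion transporter SLC22A6, the urate exchanger SLC22A12, SLC13A1, SLC5A8, AGXT2, BHMT, ACSM2B, HAO2 and the protease MEP1A. Other genes of these lists were measured, 13 of them above 1 CPM per kilobase. The 27 of 80 tested stand beside 19874 tested of 62754 genes in the deposited table. Of 35 markers of other nephron segments, 22 had fewer than 10 counts and 2 lay above 1 CPM per kilobase. Of 21 markers of cells outside the nephron, 9 had fewer than 10 counts and 3 lay above 1 CPM per kilobase. The proximal tubule markers were thus mixed, and these counts were not tested as a sign of cell identity. The cells are referred to here by their line.

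Of 37 transporters 13 were tested, 3 higher and 3 lower (median log2 fold change 0.11). That median is the value of ABCC4, which was not called and was at -0.00083 without siNAT10 replicate 2. ABCC2 among the higher genes was not called in 5 of 11 alternatives. The sodium-glucose cotransporter SLC5A2 had 186, 208 and 160 counts in siNC and 242, 255 and 291 in siNAT10, a log2 fold change of 0.31 (SE 0.0850, adjusted p = 0.00363). The bicarbonate cotransporter SLC4A4 rose by 0.62 (SE 0.127, adjusted p = 0.000204). The sodium-proton exchanger SLC9A3, at 4.52 CPM per kilobase, fell by 0.40 (SE 0.0532, adjusted p = 4.49e-07). SLC3A1, the cystine carrier subunit, fell by 0.99 (SE 0.205, adjusted p = 0.000222), and SLC3A2, the most abundant at 14.3 CPM per kilobase, fell by 0.18.

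Of 31 genes of proximal tubule metabolism 12 were tested, 2 higher and 2 lower (median 0.08). The secreted peroxidase GPX3 was highest at 40.3 CPM per kilobase and fell by 0.41 (SE 0.0368, adjusted p = 3.27e-10), and APOM followed at 16.6 without a call. CYP24A1, the vitamin D 24-hydroxylase, rose from 22.3 ± 0.951 to 39.4 ± 0.668 CPM (SD, n = 3 each; log2 fold change 0.82, adjusted p = 2.00e-13), and XYLB rose by 0.69. The carbonic anhydrase CA2 fell by 0.71 (SE 0.0703, adjusted p = 2.06e-09).

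Of 12 other brush border enzymes 2 were tested, both lower (median log2 fold change -0.33). NT5E, ecto-5′-nucleotidase, stood at 8.56 CPM per kilobase and fell by 0.34 (SE 0.0571, adjusted p = 1.80e-05). The trehalase TREH, at 1.24 CPM per kilobase, had an adjusted p of 0.049995 and was called lower, but was not called in 9 of 12 alternatives. MME (neprilysin) and DPEP1 had 21 and 6 counts in all.

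Of 14 scaffold genes of the brush border 11 were tested, 2 higher and 3 lower (median log2 fold change 0.02). PDZK1IP1 and NHERF2 among the lower genes were not called in 5 and 8 of 12 alternatives, and the log2 fold change of PDZK1IP1 went from -0.29 to -0.19 without siNC replicate 2 (adjusted p = 0.239). EZR, which links microvillar actin to the membrane, was the most abundant of them at 300.3 CPM per kilobase; its log2 fold change of 0.10 (adjusted p = 0.0349) was not called in 7 of 12 alternatives, and was 0.058 without siNC replicate 3 (adjusted p = 0.277) and 0.067 without siNAT10 replicate 3 (adjusted p = 0.217). PDZK1, which holds transporters in place, stood at 18.9 CPM per kilobase and was not called. EPS8, an actin-capping protein of microvilli, rose by 0.49 (SE 0.0343, adjusted p = 1.60e-12), and the bundling protein PLS1 fell by 0.67 (SE 0.0893, adjusted p = 4.28e-07).

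**Figure D4:**
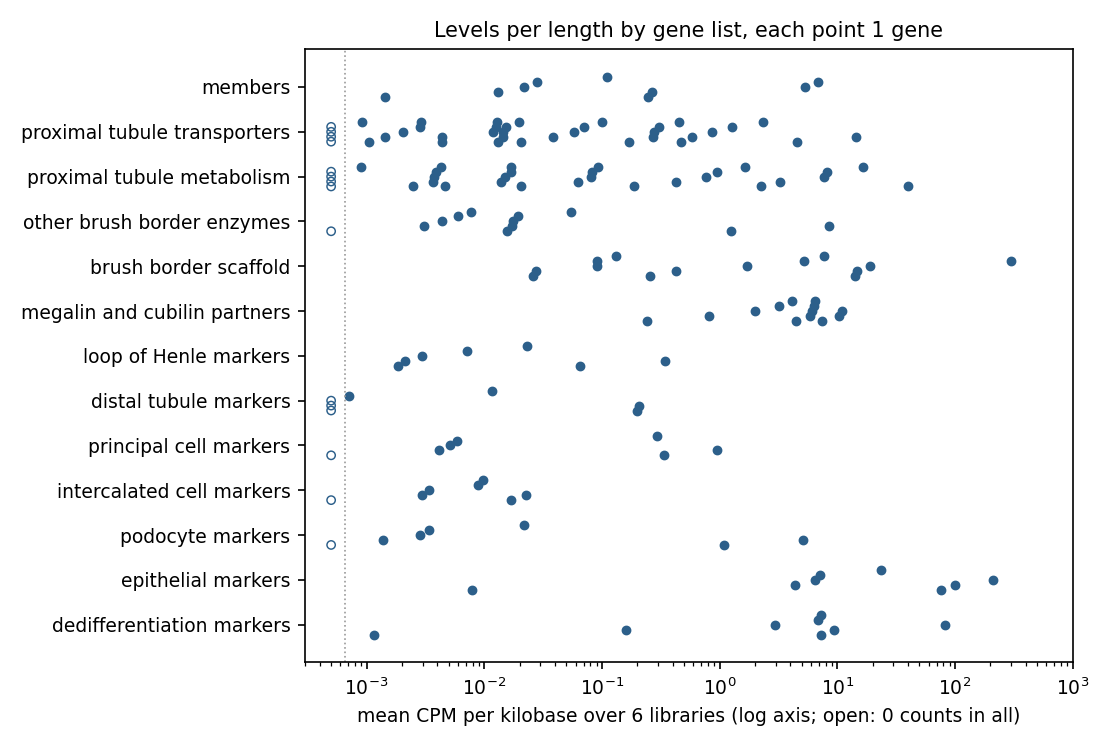
Mean CPM per kilobase over 6 libraries (horizontal, log axis) of every gene in 13 lists, each point 1 gene, open where a gene had 0 counts in all libraries. Transporters, metabolic genes and brush border enzymes of the proximal tubule spread down to 0, the partners of megalin and cubilin lie above 0.24, and the epithelial keratins reach 210.7.

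Of 35 markers of other nephron segments 22 had fewer than 10 counts in all and 6 had 0, among them SLC12A3, PVALB, TRPV5, ELF5 and ATP6V0D2. The loop of Henle list summed to 3.02, 2.56 and 2.80 CPM in the siNC libraries and 3.13, 3.42 and 3.31 in the siNAT10 libraries, mostly EGF, with 1 of 7 genes tested and that 1 higher (EGF, adjusted p = 0.0399, not called in 8 of 12 alternatives). UMOD had 3 counts in all. In the same order the distal tubule list summed to 3.07, 2.56 and 1.61 CPM and 2.09, 1.83 and 1.97 CPM, led by CALB1, the 1 gene tested, which was not called. Without siNC replicate 3, KLK1 was tested and called lower (log2 fold change -1.23, adjusted p = 0.0134).

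The principal cell list summed to 3.07, 4.57 and 4.46 CPM in siNC and 4.31, 4.25 and 3.42 CPM in siNAT10, led by AVPR2, with 3 tested and AQP3 lower. None of the 7 intercalated cell markers was tested, and they summed to 0.0530, 0.0466 and 0.311 CPM in siNC and 0.142, 0.411 and 0.315 CPM in siNAT10, led by SLC26A4. The podocyte list summed to 69.5, 72.7 and 66.9 CPM in siNC and 48.4, 52.0 and 50.6 CPM in siNAT10, mostly from SYNPO, an actin-binding protein that fell by 0.62 (SE 0.0455, adjusted p = 5.66e-12), while PODXL rose by 0.49.

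Cells from outside the nephron were checked likewise. Endothelial markers summed to 0.742, 1.21 and 0.674 CPM in siNC and 0.711, 0.594 and 0.433 CPM in siNAT10, led by ESAM. None of the 7 was tested, but ESAM, at 2 to 14 counts, was tested and called lower without siNC replicate 3 (log2 fold change -1.22, adjusted p = 0.0405) and without siNAT10 replicate 2 (-1.52, adjusted p = 0.0278). Fibroblast markers summed to 22.2, 23.5 and 21.8 CPM in siNC and 23.5, 30.1 and 24.4 CPM in siNAT10, mostly from COL1A1 and LUM, with 3 tested and COL1A1 higher (0.38, adjusted p = 0.000624), and COL1A2 and DCN had 4 and 3 counts in all. Leukocyte markers summed to 209.5, 198.7 and 216.3 CPM in siNC and 288.4, 265.6 and 268.9 CPM in siNAT10, almost wholly CD68, a lysosomal protein that is not limited to leukocytes, which rose by 0.40 (SE 0.0378, adjusted p = 8.01e-10). Of that list 3 were tested and 2 were higher, the other being PTPRC at 7 to 29 counts, which was not called in 5 of 11 alternatives and had a log2 fold change of 0.46 without siNAT10 replicate 2 (adjusted p = 0.404). LYZ had 12 counts in all. The part of these markers in the members' values was not tested.

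Keratins of simple epithelia were abundant. Of 8 epithelial markers 7 were tested, 2 higher and 3 lower (median -0.0047), and KRT8 and KRT18 stood at 210.7 and 100.02 CPM per kilobase. CDH1 had 6 counts in all, while CDH6, the cadherin of proximal tubule precursors, rose by 0.47 (SE 0.0455, adjusted p = 1.36e-09). The tight junction gene CLDN1 went from 559, 728 and 639 counts to 309, 334 and 388, a log2 fold change of -1.10 (SE 0.0615, adjusted p = 1.67e-14).

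Of 8 markers of injured or dedifferentiated tubule 7 were tested, 5 higher and 1 lower (median log2 fold change 0.38). Over all tested genes 21.8% were higher and 22.3% lower, and the list was not tested against them as a set. LCN2, which encodes NGAL, rose from 127, 174 and 141 counts to 336, 321 and 414, a log2 fold change of 1.08 (SE 0.0853, adjusted p = 2.39e-11). HAVCR1, which encodes KIM-1, rose by 0.41 (SE 0.0558, adjusted p = 7.07e-07), SOX9 by 0.43 and CD24 by 0.38. VIM and CDH2 had the highest levels of the list, 81.7 and 9.38 CPM per kilobase, VIM falling by 0.17 and CDH2 rising by 0.20. VCAM1 was called lower in 1 of 11 alternatives, that without siNC replicate 3 (log2 fold change -0.73, adjusted p = 0.0395; -0.58 and not called with all 6 libraries). LCN2 and CLDN1 were the 2 genes of these lists past both limits.

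The genes whose profile over the 6 libraries lay nearest to each tested member were found by the root mean square difference of centred log2 CPM. For PAX8 these were ZNF350, NFIX and RASEF, at differences of 0.0297, 0.0347 and 0.0418, and 255 of 12302 genes lay within 0.1. For DPP4 they were RAD50, TNRC6C and the unnamed ENSG00000288695 (0.0225 to 0.0369, with 173 genes within 0.1). For GGT1 they were ARRDC2, UFD1 and SAV1 (0.0202 to 0.0255), among 1978 within 0.1. PAX2 lay nearest to TOR2A, RAB33B and PDE4A (0.0332 to 0.0411), and AQP1 to SESN1, TIMM8B and the unnamed ENSG00000254230 (0.118 to 0.144), with no gene within 0.1. The 6 libraries form 2 groups, so a gene with a like difference between the groups lies near by that alone.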

How the data were processed

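The authors sequenced mRNA of 6 HK-2 samples with a stranded kit that adds random bases as molecular identifiers, meant for removing duplicate reads, and deposited raw counts of reads per gene. The submitters' processing notes name Trimmomatic 0.36, STAR 2.5.3a, featureCounts, Subread 1.5.1, edgeR 3.12.1 and GRCh38. Whether the deposited counts were merged by these identifiers, whether strand was used, how overlapping genes were counted, and the annotation are not given in the sources used here. Unmerged copies are not independent molecules, so intervals and floors (3 counts) cover counting error only.

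Groups and replicate numbers came from the sample titles. The tools were edgeR 4.0.16 and limma 3.58.1 under R 4.3.3. Genes were kept with filterByExpr (minimum count 10, minimum total 15), scaled by TMM and compared with glmQLFit and glmQLFTest, with Benjamini-Hochberg adjustment over all 19874 genes kept. Calls used an adjusted p under 0.05, with or without a log2 fold change over 1 in size. SEs were derived from the F statistic, and 95% intervals from its degrees of freedom. A member without 10 counts in 3 libraries was reported as low with no fold change. CPM per kilobase used the gene lengths in the deposited table. Between libraries of 1 group the chi-square per gene was 1.74 to 2.55, above the value near 1 of pure counting error.

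The members and the gene lists were chosen with earlier results of these data known. Genes named are NAT10, the members, genes overlapping them, the 3 nearest profiles of each tested member (from genes averaging 5 CPM or more), and, of each list, genes past both limits, up to 3 with the smallest p, up to 2 with the highest CPM per kilobase and those at 0. Some genes this rule takes are left unnamed here and in the plot of fold changes, but count in their lists. Other genes named were chosen after their values were seen. Alternatives were RLE scaling, library size only, no filter, at least 50 counts in 3 libraries, DESeq2 1.42.0, a replicate block, leaving out each library, GGT1 summed with its copies, and plain library totals. Sums with overlapping genes were added after seeing the data. Sequences were matched by symbol in Python 3.11.15.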

Additional observations from a re-analysis of the deposited data

How the results depend on the processing

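PAX8, DPP4 and GGT1 kept their direction and an adjusted p under 0.05 in every alternative run, 13, 12 and 14 of them, with log2 fold changes from 0.53 to 0.66, from 0.68 to 0.76 and from -0.32 to -0.16. PAX2 and AQP1 were not called in any of 11 alternatives each (0.22 to 0.46 with adjusted p from 0.262 to 0.664, and -0.77 to -0.39 with adjusted p from 0.0722 to 0.377), and the filter of at least 50 counts removed them. Without the filter on low counts, 43353 genes were tested, of which 4360 were higher, and 3 members were higher in place of 2, the third being HNF4A at an adjusted p of 0.00756. The other low members, LRP2, CUBN and ANPEP, had adjusted p of 0.852, 0.232 and 0.323 there.

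The number of genes with an adjusted p under 0.05 ran from 6652 with DESeq2 to 8833 with library size only, and from 7822 to 8168 when 1 library was left out. Genes past both limits numbered 711 without the filter and 201 with at least 50 counts, in place of 464, since more and fewer low genes were tested.

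The replicate block gave 8528 genes in place of 8771, and changed no call of a member. The replicate numbers did not pair the samples: deviations of same-numbered samples correlated at -0.04, 0.01 and -0.14 over genes, and no siNC sample correlated best with its own number. Counts of higher or lower genes in a list moved by over 1.5 times 44 times over all lists and alternatives. The median of a list rests on its middle genes, so a median near 0 can change in size or sign when a library is left out. Depth limits HNF4A, CUBN, ANPEP and LRP2 most, with 30 counts or fewer in all.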
